A study of Mus musculus with 6 samples.

Results

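Histone genes were followed in RNA from whole cerebellum of mice at postnatal day 7. They were taken by gene symbol, from probe sets that the array annotation gives to exactly 1 gene, and 32 genes of the 22180 tested qualified. Wild-type mice carried Math1Cre and intact Crebbp (3 arrays), and knockout mice carried Math1Cre with both Crebbp alleles floxed (Math1Cre::CrebbpFl/Fl, 3 arrays), so Cre was present in both groups. The Math1 (Atoh1) promoter is active in the precursors of granule neurons, so Cre acts in that lineage and leaves most other cerebellar cells with intact Crebbp. CREBBP is an acetyltransferase that modifies histones at enhancers and promoters. Whether each array had its own mouse is not stated in the labels. The p-values therefore measure only how far these samples differ among themselves, and some of that may be technical.

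Histones package DNA into nucleosomes, each built on a core of H2A, H2B, H3 and H4 and sealed by a linker histone, H1. The replication-dependent genes lie in clusters and are transcribed mainly in S phase, and most of their messages end in a stem-loop bound by SLBP in place of a poly(A) tail. Variant histones such as H2A.Z, H3.3 and H1.10 are made throughout the cell cycle from polyadenylated messages and are placed by their own chaperones. In the cerebellum at this age granule neuron precursors still divide, so messages of both kinds are made. The labelling kit named in the protocols primes total RNA throughout its length and does not depend on a poly(A) tail.

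Of the 32 genes, 23 were replication-dependent, with 4 for H1, 5 for H2A, 7 for H2B and 7 for H4. The large Hist1 cluster held 18 of these and the Hist2 cluster 5. A further 3 were variants (H2az1 and H2az2 for H2A.Z, H1f10 for H1.10), 5 are known from the germline (H1f6, H1f7, H1f8, H2ac1, H2bc1) and 1 was a pseudogene, H2af-ps2. For H3 there was no gene with a probe set of its own, and the H3 messages were read only on probe sets that several genes share. Members of a histone family are nearly identical in sequence, so a probe set assigned to 1 of them may also bind others.

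The upstream sequences of the 5 genes that passed the test are shown because the search for histone promoter motifs described further on refers to them. The gene H4c17 stands beside them because it shares a long exact stretch with H4c9 on the same strand and did not pass. Each is the 150 bases before the RefSeq transcription start in build GRCm38.p6, 5′ to 3′ on the gene's strand. The windows lie at chr3:137864337-137864486 (plus strand) for H2az1, chr13:22041363-22041512 (minus strand) for H4c9, chr13:23738657-23738806 (plus strand) for H1f2, chr13:23746584-23746733 (plus strand) for H2bc3, chr6:87981483-87981632 (minus strand) for H1f10 and chr13:21811596-21811745 (plus strand) for H4c17. Capitals mark the octamer (ATTTGCAT) and the CCAAT box (CCAAT), each on either strand, and the TATA box (TATAAA) on the gene's strand.
H2az1: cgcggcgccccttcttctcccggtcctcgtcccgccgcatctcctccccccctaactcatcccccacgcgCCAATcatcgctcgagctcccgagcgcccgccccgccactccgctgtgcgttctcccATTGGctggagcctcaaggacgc
H4c9: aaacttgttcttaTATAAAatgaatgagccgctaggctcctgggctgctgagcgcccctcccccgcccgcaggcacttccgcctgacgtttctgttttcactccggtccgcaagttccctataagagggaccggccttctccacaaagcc
H1f2: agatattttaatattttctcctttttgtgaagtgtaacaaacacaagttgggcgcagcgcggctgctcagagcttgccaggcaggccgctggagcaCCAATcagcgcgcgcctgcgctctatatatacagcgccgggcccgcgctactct
H2bc3: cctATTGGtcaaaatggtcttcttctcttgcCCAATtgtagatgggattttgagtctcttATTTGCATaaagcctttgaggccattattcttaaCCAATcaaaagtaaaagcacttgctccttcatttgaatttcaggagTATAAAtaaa
H1f10: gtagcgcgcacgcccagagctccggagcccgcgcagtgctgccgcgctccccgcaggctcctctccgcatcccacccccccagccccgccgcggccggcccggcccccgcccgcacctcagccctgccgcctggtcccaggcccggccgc
H4c17: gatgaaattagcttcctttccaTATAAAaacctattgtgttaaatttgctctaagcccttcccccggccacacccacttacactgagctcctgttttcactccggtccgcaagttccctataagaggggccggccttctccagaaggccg

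The deposited values are log2 expression values per probe set and array. Their array medians ran from 7.25 to 7.29, and 25% of all values lay below 6.02. Crebbp was lower on every knockout array, at 11.96, 11.99 and 11.90 in the wild type and 11.46, 11.42 and 11.32 in the knockout. The difference was -0.56 (SE 0.05, adjusted p 0.000354), or 1.47-fold. The cerebellar markers Zic1 and Calb1 were at 12.3 or above on every array, and the forebrain and hindbrain markers averaged 6.41 to 6.57. Genes of the choroid plexus, the tissue that makes cerebrospinal fluid, differed between arrays. All 7 of the 10 listed markers that were measured were higher in the knockout and 0 passed the test. Their mean was 7.193 to 7.996 on the wild-type arrays and 7.28 to 9.48 on the knockout arrays, and 1 wild-type and 2 knockout arrays had the transthyretin gene Ttr above 10. Whole-tissue RNA cannot tell fewer cells of a type apart from less RNA per cell.

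With an adjusted p under 0.05 as the threshold, 2 of the 32 genes rose (H2az1 and H4c9) and 3 fell (H1f2, H1f10 and H2bc3). That is 5 of 32, or 15.6%, against 6.67% of all genes tested. In each direction the background was 2.72% of genes rising and 3.94% falling. The 3 wild-type and 3 knockout arrays did not overlap for 12 of the 32 genes (37.5%), against 25% of all genes, and 9 of these 12 were lower in the knockout. The median difference over the 32 genes was -0.05 log2 units, with 20 lower and 12 higher (16 and 16 on the arrays low in Ttr), and that over all genes was -0.00275 (11282 lower, 10898 higher). The median size of a difference, whatever its sign, was 0.14 for the histone genes and 0.09 for all genes. Of the 7 histone genes whose mean lay under the 25th percentile of all values, 0 passed.

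**Figure D1:**
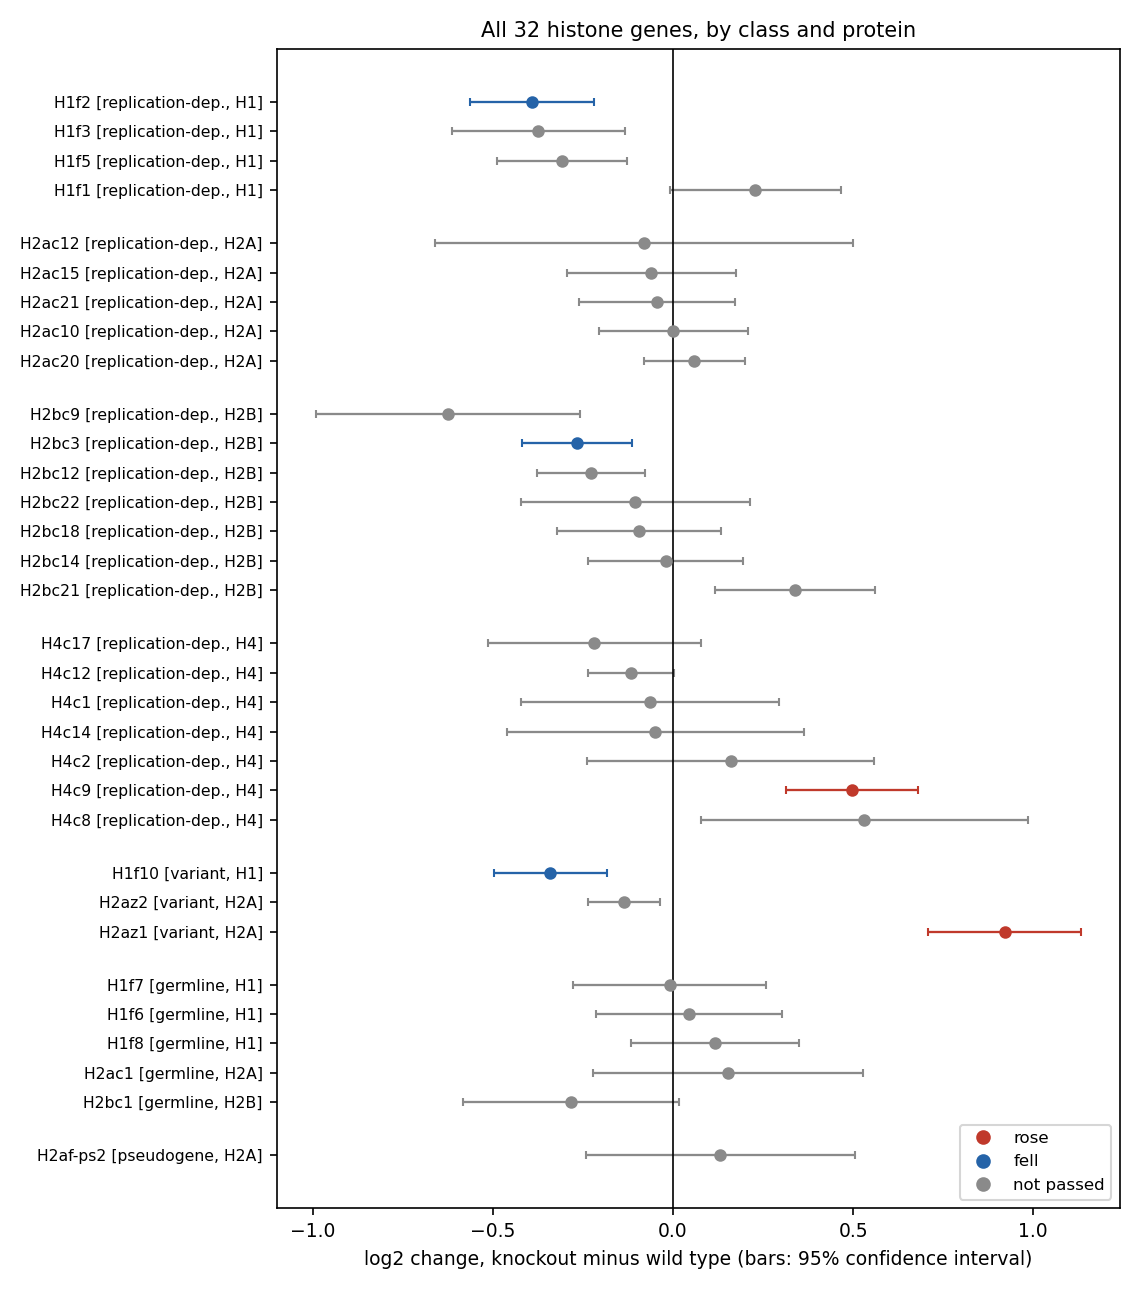
The log2 difference, knockout minus wild type, of each of the 32 histone genes with its 95% confidence interval, 3 arrays per group. H2az1 and H4c9 lie to the right and H1f2, H1f10 and H2bc3 to the left among the genes that passed, while H2bc9, H4c8 and H2bc21 lie further out than some of these without passing.

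H2az1 showed the largest difference of the histone genes. It encodes H2A.Z, the H2A variant that marks nucleosomes beside transcription start sites. It was measured at 8.41, 8.195 and 8.51 in the wild type and at 9.12, 9.39 and 9.37 in the knockout. All knockout arrays lay above all wild-type arrays by more than the spread within either group. The rise was 0.92 (SE 0.10, adjusted p 0.000783), or 1.89-fold with a 95% interval of 1.63 to 2.19. It stayed past the threshold with each of the 6 arrays left out in turn, between 0.83 and 1.01. On the 3 arrays low in Ttr, 2 wild-type and 1 knockout, the difference was 1.04. The knockout has no spread of its own there, so such low-Ttr values are given here as sizes, without a test.

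The paralogous gene H2az2 encodes the other H2A.Z protein. Its values were 11.17, 11.14 and 11.13 in the wild type and 11.00, 11.07 and 10.96 in the knockout. The groups did not overlap, and all knockout arrays were the lower, but the difference of -0.14 (SE 0.04) did not pass (adjusted p 0.112) and was -0.07 on the arrays low in Ttr. Its 95% interval, -0.24 to -0.04, lies wholly below that of H2az1, which runs from 0.71 to 1.13. The 2 genes were read on different probe sets, so their levels cannot be compared with each other.

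H1f10 encodes H1.10, a linker histone made throughout the cell cycle. It was at 10.44, 10.32 and 10.46 in the wild type and at 10.12, 10.17 and 9.92 in the knockout. Every knockout array lay below every wild-type array. The gene fell by 0.34 (SE 0.07, adjusted p 0.0196), a 1.27-fold difference (95% interval 1.14 to 1.41). H1f10 no longer passed with wild-type replicate 1 or 3 left out (adjusted p 0.0928 and 0.0617). Fitted beside the choroid plexus mean, the difference was -0.26 (adjusted p 0.130), and on the 3 arrays low in Ttr it was -0.23.

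**Figure D2:**
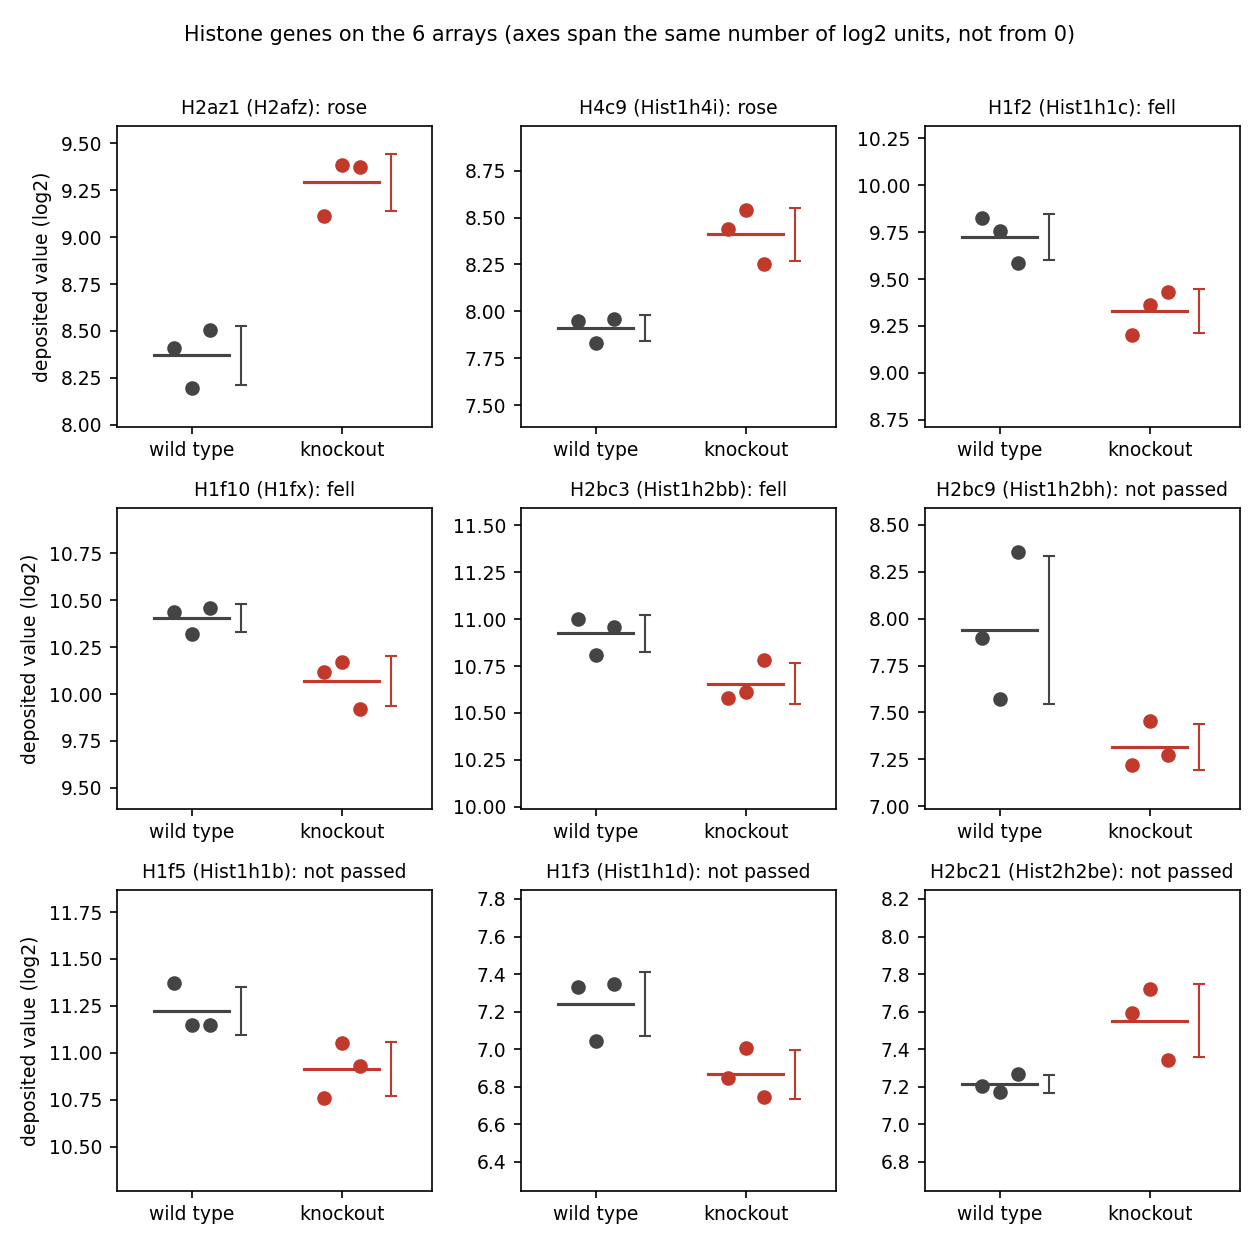
Log2 values of 9 histone genes on each of the 3 wild-type and 3 knockout arrays; points are arrays, lines group means and bars the SD, and each panel spans the same number of log2 units. H2az1, H4c9 and H2bc21 lie higher on all knockout arrays, and the other 6 genes lie lower on all of them.

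Among the 23 replication-dependent genes 1 rose and 2 fell (13.0%, against 6.67% of all genes). Their median difference was -0.06, with 16 genes lower. The 4 replication-dependent H1 genes had a median difference of -0.34. Of these, 3 had all knockout arrays below all wild-type arrays, as did 2911 of all 22180 genes. On the arrays low in Ttr that median was -0.14, and that of the 23 genes was -0.01, with 12 lower. H1f2, which encodes H1.2, was at 9.83, 9.76 and 9.59 in the wild type and at 9.20, 9.36 and 9.43 in the knockout. It fell by 0.39 (SE 0.08, adjusted p 0.0160), a 1.31-fold difference (95% interval 1.17 to 1.48). The groups were apart, though the lowest wild-type and the highest knockout array were close. H1f2 did not pass without wild-type replicate 1 (adjusted p 0.0822), wild-type replicate 2 (0.0640) or knockout replicate 1 (0.0536), nor beside the choroid plexus mean (-0.42, adjusted p 0.0582), and was at -0.31 on the arrays low in Ttr.

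The other H1 genes did not pass. H1f5, which encodes H1.5, was at 11.37, 11.15 and 11.15 in the wild type and at 10.76, 11.05 and 10.93 in the knockout, a difference of -0.31 (adjusted p 0.0514). Its highest knockout array lay just under its lowest wild-type array. H1f3, which encodes H1.3, was at 7.33, 7.04 and 7.35 against 6.85, 7.01 and 6.75, a difference of -0.37 (adjusted p 0.0701). On the arrays low in Ttr the differences were -0.10 for H1f5 and -0.19 for H1f3. H1f1, which encodes H1.1, went the other way, from a mean of 8.34 ± 0.23 (SD, n = 3) to 8.57 ± 0.09, with overlapping groups and a difference of 0.23 (adjusted p 0.265).

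For H2B, 6 of 7 genes were lower in the knockout and the median difference was -0.11. The median was -0.16 on the arrays low in Ttr and -0.15 beside the choroid plexus mean, with 6 lower in both. H2bc3 was the gene that passed. Its values were 11.00, 10.81 and 10.96 in the wild type and 10.58, 10.61 and 10.78 in the knockout, where the highest array came close to the lowest wild-type array without reaching it. The gene fell by 0.27 (SE 0.07, adjusted p 0.0466), a 1.20-fold difference (95% interval 1.08 to 1.34). This call was the least firm of the 5. It held with 2 of the 6 arrays left out in turn, and otherwise had an adjusted p up to 0.189. Beside the choroid plexus mean it was -0.34 (adjusted p 0.0541), and on the arrays low in Ttr -0.27.

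H2bc9 had the most negative difference of the 32 genes without passing. It was at 7.89, 7.57 and 8.36 in the wild type and at 7.22, 7.46 and 7.27 in the knockout, and the wild-type arrays differed widely among themselves. The difference was -0.63 (SE 0.16, adjusted p 0.0515). H2bc9 passed without wild-type replicate 2, its lowest wild-type array (adjusted p 0.0185). With any other single array left out it did not pass (adjusted p up to 0.1442). It passed under 5 of 11 other settings of the fit, but not beside the choroid plexus mean (-0.54, adjusted p 0.2273). H2bc12 was lower on all knockout arrays by 0.23 (adjusted p 0.0766), from 9.22 ± 0.11 (SD, n = 3) to 8.99 ± 0.06. H2bc14, H2bc18 and H2bc22 overlapped between groups, with differences from -0.11 to -0.02.

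H2bc21, in the Hist2 cluster, is a replication-dependent gene known for also giving a polyadenylated message in cells that no longer divide. It was the H2B gene that was higher in the knockout. Its values were 7.204, 7.17 and 7.27 in the wild type and 7.59, 7.72 and 7.34 in the knockout, so the groups were apart, with knockout replicate 3 close to the wild type. The difference of 0.34 (SE 0.10) did not pass (adjusted p 0.0758). H2bc21 passed without knockout replicate 3 (adjusted p 0.0184), the knockout array nearest the wild type. With any other single array left out it did not pass (adjusted p up to 0.2045). It passed under 2 of 11 other settings of the fit, array weights and the choroid plexus mean as covariate (0.48, adjusted p 0.0421).

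H4c9 was the replication-dependent gene that rose. Its values were 7.95, 7.83 and 7.96 in the wild type and 8.44, 8.54 and 8.26 in the knockout. The lowest knockout array lay above the highest wild-type array by about the spread of the knockout group. The rise was 0.50 (SE 0.08, adjusted p 0.00704), or 1.41-fold with a 95% interval of 1.244 to 1.602. It passed with each array left out in turn, between 0.43 and 0.58, and on the arrays low in Ttr the difference was 0.64.

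The other H4 genes did not pass. H4c8 was higher by 0.53 (SE 0.20, adjusted p 0.170), but with means of 5.43 ± 0.30 (SD, n = 3) and 5.96 ± 0.39 it was dim, below the 25th percentile of all values, and its groups overlapped. H4c17 was at 7.75, 7.82 and 7.88 in the wild type and at 7.26, 7.66 and 7.87 in the knockout, a difference of -0.22 (adjusted p 0.414) that was -0.05 without knockout replicate 1. H4c12 differed by -0.12 (SE 0.05, adjusted p 0.255), and H4c1, H4c2 and H4c14 lay between -0.06 and 0.16. A probe set that the annotation gives to 6 H4 genes, H4c9 among them, differed by -0.04 (SE 0.06).

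Of the 5 H2A genes 0 passed in limma, and their differences ran from -0.08 to 0.06. On the arrays low in Ttr all 5 were higher, with a median of 0.10. H2ac10 was at 12.69, 12.45 and 12.88 in the wild type and at 12.59, 12.67 and 12.76 in the knockout. H2ac20 and H2ac21, both in the Hist2 cluster, differed by 0.06 (95% interval -0.08 to 0.20) and -0.04 (-0.26 to 0.17). For these 3 genes the groups overlapped, and every 95% interval stayed within 0.26 of no difference. A second, dim probe set of H2ac21 differed by 0.14 (SE 0.14). H2ac12 and H2ac15 were dim, and the interval of H2ac12 was wide, -0.66 to 0.50.

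The 5 germline genes and the pseudogene gave 0 calls. H1f6, the testis linker histone, H1f7, that of spermatids, and H1f8, that of oocytes, differed by 0.04, -0.01 and 0.12, with overlapping groups. H2ac1 was higher by 0.15 (adjusted p 0.694). H2bc1, the testis H2B, was at 3.54, 3.68 and 3.62 against 3.45, 3.29 and 3.23, a difference of -0.28 (adjusted p 0.273) at the bottom of the scale. H2af-ps2 differed by 0.13 (SE 0.17).

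**Figure D3:**
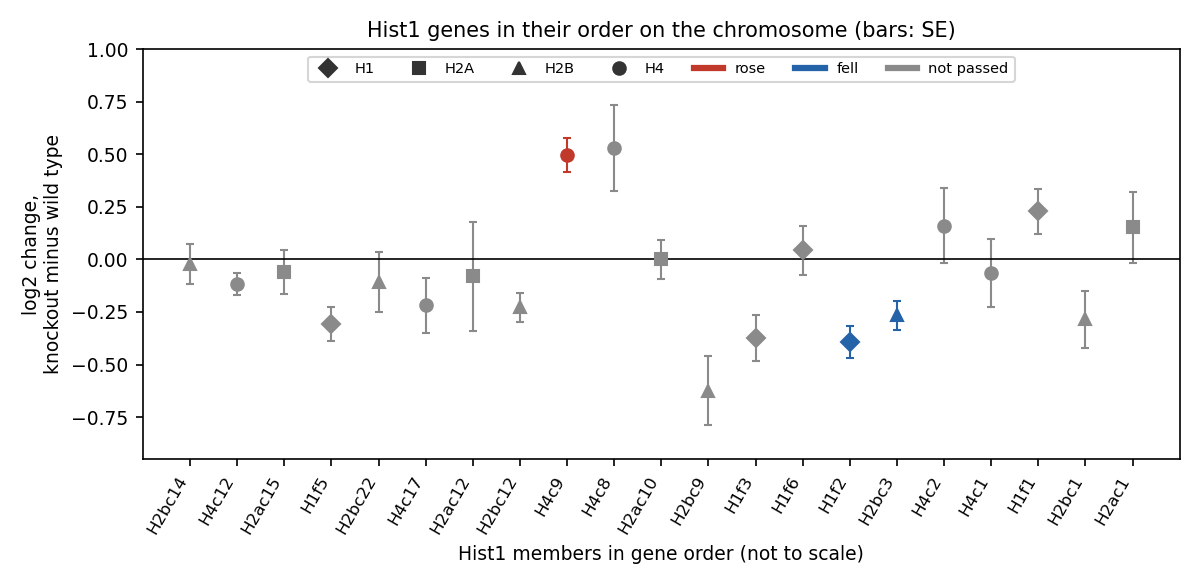
The log2 difference with its SE for 21 histone genes of the Hist1 cluster (the pseudogene H2af-ps2 left out), placed in their order along the chromosome and not to scale, so that neighbours in the plot may have other genes between them. H4c9 and H4c8 stand next to each other above the line, though far apart on the chromosome, and H2bc9 and H1f3 follow below it.

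In the Hist1 cluster genes that were higher and genes that were lower lay side by side. Ordered along the chromosome, 21 measured genes of the cluster, germline genes included and the pseudogene H2af-ps2 left out, ran from H2bc14 to H2ac1. H4c9 and H4c8, at 0.50 and 0.53, followed each other in this order, which skips the genes that were not measured. They are not close on the chromosome, as their upstream windows start at 22041363 and 23530894. H2bc12, which comes just before H4c9 in the order and whose window starts at 22035671, differed by -0.23. H2bc9 and H1f3, at -0.63 and -0.37, came after H4c8 with only H2ac10 between. H1f2 and H2bc3, which fell, also followed each other. The replication-dependent genes of Hist1 had a median of -0.09 and those of Hist2 of -0.04.

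The replication-dependent genes were also ordered alike on the wild-type arrays. Wild-type replicate 2 was the lowest of its group for 18 of the 23 genes (78.3%) and the highest for 0, whereas over all genes it was the lowest for 31.4%. Wild-type replicate 3 was the highest for 15. Averaged over the 23 genes and set against the wild-type mean, the arrays lay at 0.02, -0.14 and 0.12 in the wild type and at -0.13, 0.01 and -0.04 in the knockout. The group means of this average therefore differ by -0.05, less than the SD of 0.13 among the wild-type arrays, and without wild-type replicate 3 the difference was 0.01. For H1 alone the values were 0.09, -0.12 and 0.03 against -0.31, -0.12 and -0.20, and for H2B -0.01, -0.13 and 0.15 against -0.17, -0.11 and -0.15. In both families the lowest wild-type array, replicate 2, lay within the knockout range and the other wild-type arrays above it.

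Probe sets shared by several histone genes held the H3 and H3.3 messages. There were 44 such probe sets, 3 of which repeat the values of others, and the 41 distinct ones were fitted with every probe set of the array. Of these 0 passed in limma, against 1.87% of all probe sets, and 6 had an unadjusted p under 0.05, 4 for H3.3 and 2 for H2B. The 7 distinct H2B probe sets had 5 lower and 2 higher in the knockout. The highest was at 9.90, 10.04 and 9.57 in the wild type and at 10.11, 10.24 and 10.24 in the knockout. That difference was 0.36 (SE 0.12, adjusted p 0.189). The 7 probe sets for H3.3, the H3 variant placed outside replication, which also name predicted genes, were all lower in the knockout. Their median was -0.11, and their groups did not overlap on 6, against 11 of the 41 shared probe sets and 25% of all genes. These 7 probe sets read the same few genes, so they are not separate measurements. The lowest was at 9.003, 9.01 and 8.90 in the wild type and at 8.57, 8.68 and 8.73 in the knockout, a difference of -0.31 (SE 0.07, adjusted p 0.0695). The 12 probe sets for replication-dependent H3 spread on both sides, from -0.24 to 0.42, with a median of 0.06 and 7 higher. Several of them were dim, below the 25th percentile of all values. The highest was among these, with means of 4.86 in the wild type and 5.29 in the knockout (SE of the difference 0.28).

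**Figure D4:**
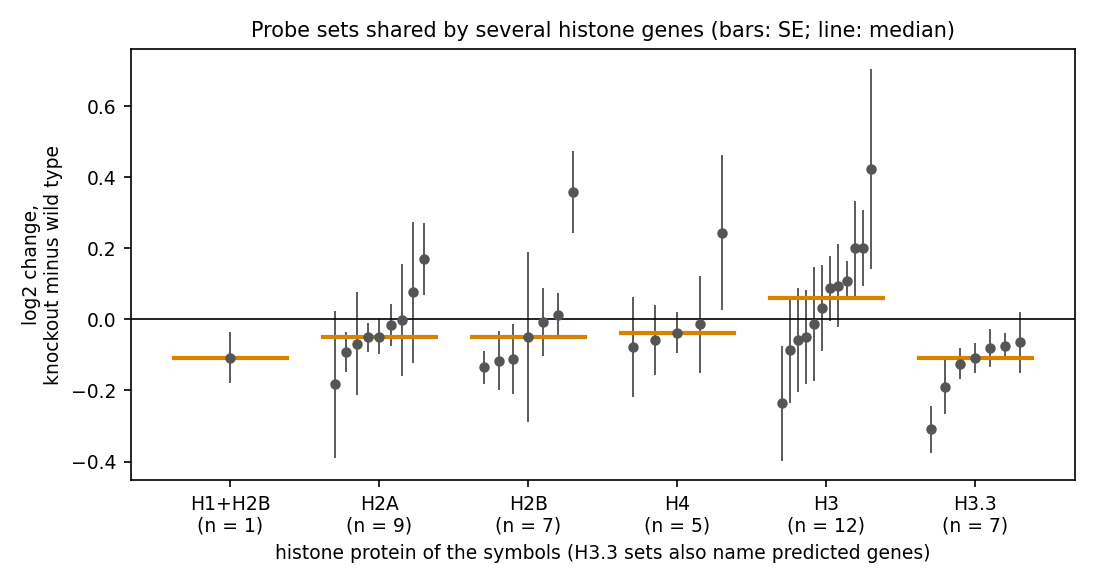
The log2 difference with its SE for the 41 distinct probe sets that several histone genes share, by the histone protein they name, with a line at each median. All 7 H3.3 probe sets lie below 0, with a median of -0.11, while the 12 H3 probe sets lie on both sides of it.

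Genes that act on histone messages gave 1 call. Of 21 listed genes for histone gene transcription and pre-mRNA processing, 20 were measured, 1 rose (5%, against 2.72% of all genes) and 0 fell, with a median difference of -0.01. The gene that rose was Cpsf3, the endonuclease that cuts histone and polyadenylated pre-mRNA. It went from 10.24, 10.21 and 10.29 to 10.46, 10.42 and 10.50, a difference of 0.21 (adjusted p 0.0261), and passed with 2 of the 6 arrays left out in turn. Slbp, the stem-loop binding protein, differed by -0.06 (adjusted p 0.580) and Npat, the activator of clustered histone genes, by 0.13 (0.218). Cstf2, Eri1 and Cpsf2 differed by -0.17, -0.15 and -0.09 without passing.

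Histone chaperones and exchange factors also gave 1 call. Of 27 listed genes 25 were measured, 0 rose and 1 fell, which is 4%, about the 3.94% of all genes that fell. The median was -0.05, with 17 lower, and -0.02 on the arrays low in Ttr. Hirip3, a partner of the H3.3 chaperone HIRA, was at 8.50, 8.50 and 8.54 in the wild type and at 8.21, 8.36 and 8.07 in the knockout. It fell by 0.30 (adjusted p 0.0494), with every knockout array below the wild type, and passed with 1 of the 6 arrays left out in turn. Anp32e, which removes H2A.Z from nucleosomes, differed by -0.16 (adjusted p 0.194), and Nasp, which binds H3, H4 and linker histones, by -0.17 (0.136). The chaperone gene Nap1l1 differed by -0.14 (adjusted p 0.161) and the importin gene Ipo4 by 0.13 (0.179).

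Genes of S phase were mostly lower. Of 28 listed, 26 were measured, 3 fell (11.5%, against 3.94% of all genes) and 0 rose. The median was -0.07, with 22 lower. It was -0.03 both beside the choroid plexus mean (18 lower) and on the arrays low in Ttr (17 lower). E2f2 and E2f1, transcription factors that drive entry into S phase, fell by 0.51 (SE 0.07) and 0.43 (SE 0.06), and Cdt1, which licenses replication origins, fell by 0.33 (SE 0.05). Pcna, the replication clamp, was at 11.56, 11.46 and 11.53 against 11.36, 11.40 and 11.34, a difference of -0.16 (adjusted p 0.0730). The proliferation marker Mki67 differed by -0.14 (adjusted p 0.132).

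Cell type markers moved as well. Of 14 markers of granule neuron precursors 3 rose and 4 fell, against 2.72% and 3.94% of all genes, with a median of -0.04. Cxcr4 rose by 0.70, Atoh1 by 0.52 and Ccnd1 by 0.24. Ccnd2 fell by 0.33, Pax6 by 0.30, Zic2 by 0.25 and Zic1 by 0.24. Beside the choroid plexus mean 2 of the 14 markers rose and 1 fell. Of 12 markers of maturing granule neurons 10 fell (83.3%, against 3.94% of all genes), and 7 beside the choroid plexus mean, with a median of -0.52, and their mean ran from 10.48 to 10.66 in the wild type and from 9.96 to 10.08 in the knockout. Of 16 measured markers of other cerebellar cells 1 rose. The part of these shifts in the histone results was not tested.

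The motif search covered windows from 250 bases before to 50 bases after the start, which RefSeq gave for 29 of the 32 genes. The octamer, known from H2B promoters, was in 4 of the 6 windows of replication-dependent H2B genes, against 1.74% of all 32851 windows. It was also in 2 of the 5 windows of replication-dependent H2A genes and in 2 of the 5 of germline genes. Those of replication-dependent H1 and H4 genes held it in 0 of 4 and 0 of 6. The TATA box was in 12 of 21 replication-dependent windows (57.1%), against 8.32% of all windows, and the CCAAT box in 16 of 21, against 37.4%. By family the TATA box was in 3 of 4 windows for H1, 4 of 5 for H2A, 1 of 6 for H2B and 4 of 6 for H4. A match could lie anywhere in the window, and those of H2ac12, H2ac15 and H4c1 lie outside the 150 bases before the start. Of the 5 genes that passed, 1 held the octamer (H2bc3), 2 the TATA box letters (H4c9 and H2bc3) and 3 the CCAAT box (H2az1, H1f2 and H2bc3), as the capitals above show. The match in H4c9 lies at the end of its printed bases farthest from the start. H1f2 has no TATAAA but prints tatatata on the side near the start. A match to these letters describes the sequence and does not show that a factor binds.

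The cAMP response element (TGACGTCA) is the motif of CREB, the factor after which CREBBP is named. It was in the windows of H4c1 and H4c8, 2 of the 29 histone windows (6.9%), against 1.79% of all windows. It was in 0 of the windows of the 5 genes that passed, which are too few to set against these shares. Read on each gene's own strand, the longest exact stretch that any of 406 pairs shared within their 150 upstream bases was 38 bases, in H4c9 and H4c17, against 13 for the next pair and a median of 7. On opposite strands H2ac12 and H2bc12, which are transcribed away from each other, share 123 bases because their upstream regions are the same DNA, and H2ac1 and H2bc1 share 20. The windows of H4c9 and H4c17 print their stretch as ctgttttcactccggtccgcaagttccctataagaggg, on the side near the start. H4c9 rose by 0.50, and H4c17, with this stretch, differed by -0.22 without passing.

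**Figure D5:**
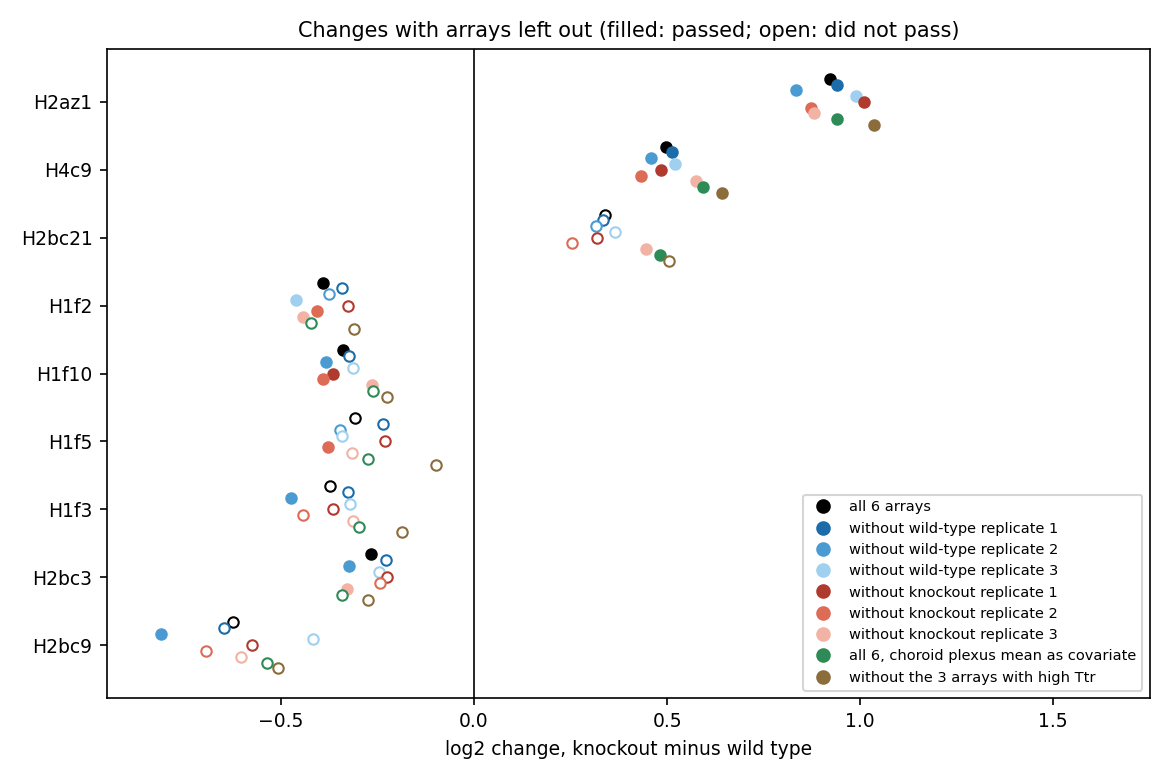
The log2 difference of 9 histone genes in the full comparison, with each of the 6 arrays left out, beside the choroid plexus mean and without the arrays high in Ttr; filled points passed the threshold, and the setting without the high-Ttr arrays holds 1 knockout array, assumed to vary like the others. H2az1 and H4c9 are filled in every setting, and the points of H2bc3, H1f2 and H1f10 are open in several.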

How the data were processed

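Total RNA extracted with Trizol was labelled with the GeneChip WT PLUS kit and hybridised to Affymetrix arrays, per the labels' protocols. The authors deposited log2 expression values per probe set. The submitters' processing notes name RMA and oligo. Versions, genome build and filters: not given in the sources used here. No detection calls came with the values.

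The array annotation gave 1 symbol to 23521 of 41345 probe sets, and a gene was read on its brightest probe set, by the mean of the 6 arrays (22180 genes). Symbols of the annotation were set against older ones through the RefSeq gene table (GRCm38.p6) to assign the histone classes. The knockout was tested against the wild type in limma (version 3.58.1, lmFit and eBayes with a trend, R version 4.3.3), two-sided, with Benjamini-Hochberg adjustment over all 22180 genes. Genes said to have risen or fallen had an adjusted p under 0.05. Intervals are 95% intervals of the fit.

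Members and gene lists were chosen with earlier results of these data known. The rule for named genes took Crebbp, histone genes that passed, replication-dependent ones of smallest p (up to 12 in each direction), all variant and germline genes, genes with several probe sets, and from each list the genes that passed with up to 4 further members of smallest p (markers: up to 3, and Ttr, Atoh1 and Mki67). The other histone genes, Slbp, Zic1, Zic2, Ccnd1, Ccnd2 and Calb1 were named after their values were seen. The fit was tested on simulated data. Alternatives were other priors, scalings, filters, thresholds and probe set rules, array weights, a replicate block, the choroid plexus mean as covariate and arrays left out. Upstream sequences came from RefSeq. Python 3.11.15, pandas 2.3.3 and matplotlib 3.10.9 served for tables and plots.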

Additional observations from a re-analysis of the deposited data

How the results depend on the processing

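Of the histone calls, H2az1 and H4c9 passed under all 11 other settings at the same threshold and with each array left out. H1f2 and H1f10 did not pass under 4 of the 11, and H2bc3 under 5. The count of histone genes that rose, 2, became 2 to 3 with single arrays left out. The count that fell, 3, was 6 with array weights, 5 with dim genes left out and 7 at an adjusted p under 0.1. It was 0 beside the choroid plexus mean as covariate, with no trend in the prior variance, without the arrays with Ttr above 10, with each probe set tested on its own and at an adjusted p under 0.01, and it ran from 0 to 4 with single arrays left out: 0 without wild-type replicate 1, and 1 each without the third wild-type and the first knockout array. The cause was not tested. The 1 processing gene that rose (Cpsf3) became 0 with the covariate, with no trend, without the arrays with Ttr above 10, with each probe set on its own and at 0.01, and ran from 0 to 1 with arrays left out. The 1 chaperone that fell (Hirip3) became 0 under those settings, with median centring and under the replicate block, and also ran from 0 to 1. The 3 S phase genes that fell became 0 without the arrays with Ttr above 10, at differences of -0.47 for E2f2, -0.44 for E2f1 and -0.31 for Cdt1. Maturing granule neuron markers that fell went from 10 to 4 there, and precursor markers to 1 that rose and 0 that fell. That setting sets 1 knockout array against 2 wild-type arrays, and the lone array is assumed to vary like the others, so its calls say little. The mean difference of the 3 variant genes, 0.15, is positive through H2az1, while their median is -0.14; the mean was 0.25 without the arrays with Ttr above 10 and 0.10 to 0.18 with single arrays left out. That of the replication-dependent genes, -0.05, was 0.02 without them and -0.12 to 0.01 with single arrays left out, so its sign is not stable. Replicate numbers of the 2 groups are not stated to pair samples, and deviations of same-numbered arrays correlated at 0.01, 0.03 and -0.13. With the replicate block, 2 histone genes rose and 4 fell, and over all genes 723 rose and 1078 fell, against 604 and 875. With no trend in the prior variance 184 rose and 310 fell. The median difference of all genes moved to -0.02 with median centring. With 3 arrays per group and no detection calls, dim genes such as H2bc1, H4c2 and H2ac12 have only wide intervals.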

Other observations

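Other histone variants have symbols that the choice of genes by prefix leaves out, and they were looked up after the values above were seen. Macroh2a2, which encodes a macroH2A found in silent chromatin, was at 7.73, 7.84 and 7.69 in the wild type and at 7.42, 7.52 and 7.47 in the knockout. All its knockout arrays lay below the wild type, and the difference of -0.28 (SE 0.07) narrowly missed the threshold (adjusted p 0.0513). Its paralogue Macroh2a1 differed by -0.11 (adjusted p 0.201). Cenpa, the centromeric H3, differed by -0.13 (adjusted p 0.199), H2ax, which is phosphorylated at DNA breaks, by -0.06 (0.618) and H2aj by 0.09 (0.574). Among these 5 genes 0 passed in limma.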
